A study of Mus musculus with 151 samples.

Results

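The 46 single cells described here were induced outer hair cells (P14_iOHCs), that is, cochlear inner hair cells (IHCs) that had lost *Tbx2* after birth and were picked as outer hair cell (OHC)-like cells at Postnatal Day 14. They make up 46 of the 151 single-cell libraries of the series. The P14_iOHCs came from vGlut3-P2A-iCreER/+; Tbx2 flox/-; Ai9/+ mice on a C57BL/6 background, and the 55 P14_WT IHCs and 50 P30_WT IHCs came from vGlut3-P2A-iCreER/+; Ai9/+ mice, so all groups carried the iCreER and Ai9 reporter alleles and received tamoxifen at P2 and P3. The iCreER sits at the *Slc17a8* (vGlut3) locus, and only Tdtomato+ cells were picked by hand, the P14_iOHCs being those of smaller size. In the P14_iOHCs, 1 *Tbx2* allele was a germ-line null and the second exon of the other was floxed, so a count per gene cannot tell the deleted transcript from the intact one.

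Each cell received a score, the mean of log2(CPM + 1) over *Gjb2*, *Gjb6*, *Epyc*, *Otogl*, *Slc1a3* and *Hes1*, where CPM is the count per 1000000 counts of that library. The 23 cells with the largest scores (marker-high) were set against the 23 with the smallest (marker-low). Because measured levels of these cells chose the groups, and because each library is 1 cell with no animal named, the comparison has no replicate check: all ratios are descriptions, with no p-value and no standard error. A gene's log2 ratio is that of its mean CPM + 1 in marker-high over marker-low cells. Its pair share is the percent of all pairs of 1 marker-high and 1 marker-low cell in which the marker-high cell has the larger CPM, ties counting equally for each side. A gene was called higher with a log2 ratio of at least 1 and a pair share of at least 70%, and lower with a log2 ratio of at most -1 and a pair share of at most 30%.

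Supporting cells (SCs) surround the hair cells (HCs) of the organ of Corti. They couple to each other through gap junctions, clear glutamate and potassium from around the HCs, and secrete proteins of the tectorial membrane that lies over them. Notch signalling from HCs holds SC fate during development through Hes and Hey repressors, and inner border and inner phalangeal cells (IBCs/IPhs) are the SCs next to the IHCs, with pillar and Deiters' cells lying nearer the OHCs.

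The 6 score markers declined over the 46 cells with no gap at the boundary. Scores ran from 4.87 to 9.76 (median 7.04) in marker-high cells and from 0 to 4.61 (median 1.42) in marker-low cells. The cells on either side of the boundary, P14_iOHC-9 at 4.87 and P14_iOHC-24 at 4.61, were close neighbours. The same score ran from 0 to 6.25 (median 0.0476) in P14_WT IHCs and from 0 to 5.07 (median 0.648) in P30_WT IHCs. Thus 15 marker-high cells and 0 marker-low cells lay above every P14_WT IHC, whereas 5 P14_WT IHCs and 4 P30_WT IHCs lay at or above the lowest marker-high cell.

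*Gjb2* and *Gjb6*, which encode connexin 26 and connexin 30 and are neighbours on chromosome 14 (GRCm38, chr14:57098600-57104702 and chr14:57123303-57133611, both on the minus strand), had counts in all 23 marker-high cells. *Gjb2* ranged from 106.8 to 1845 CPM (median 366.6) there and from 0 to 380.5 CPM (median 0.251) in marker-low cells. *Gjb6* ranged from 227.0 to 4852 CPM (median 716.5) and from 0 to 623.3 CPM (median 7.04), respectively. The connexins were therefore present in every marker-high cell, but their ranges overlapped between the groups. *Epyc*, a small leucine-rich proteoglycan, was less regular: it ranged from 0 to 7176 CPM (median 130.4) in marker-high cells, of which 19 had a count, and reached 163.8 CPM in marker-low cells. *Otogl*, an otogelin-like protein of the extracellular matrix, had a median of 264.4 CPM against 0.13, and *Slc1a3*, the glutamate transporter GLAST, a median of 111.9 CPM against 0.10. *Hes1*, the Notch target, had counts in 22 marker-high cells (median 80.8 CPM) and 11 marker-low cells (median 0). Over the 46 cells the pairwise Spearman correlations among the 6 markers ran from 0.481 (*Gjb6* and *Epyc*) to 0.877 (*Gjb2* and *Gjb6*), as a description of libraries that share their own depth and detection. All of these values entered the score and describe the choice of cells.

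**Figure D1:**
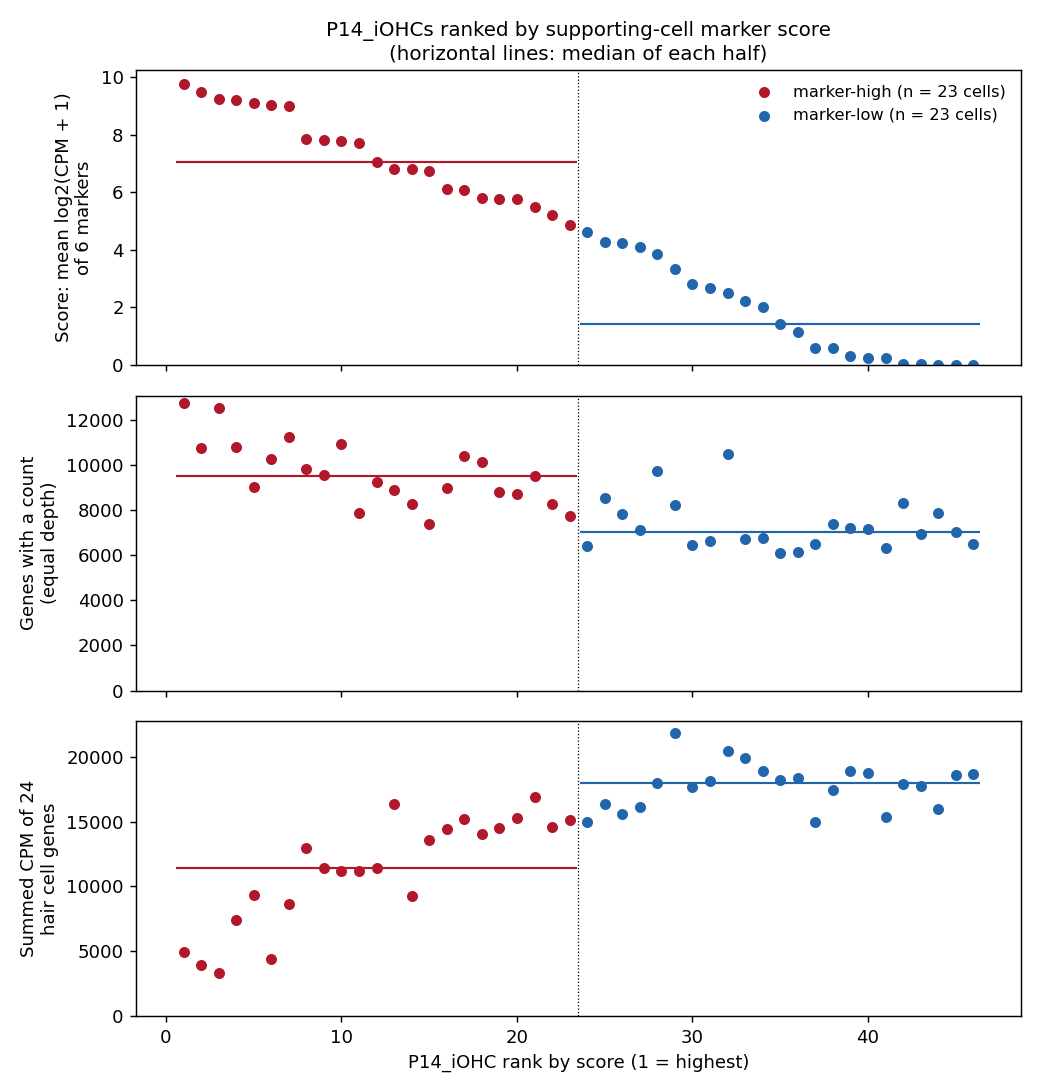
The 46 P14_iOHCs ranked by the score (x axis), with the score, the number of genes with a count after thinning to equal depth, and the summed CPM of 24 HC genes on the y axes; each point is 1 cell and each horizontal line a group median. Scores decline without a gap at the boundary, detected genes have medians of 9523 and 7035, and the 3 top-ranked cells hold 3311 to 4910 CPM of HC genes.

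Library measures moved with the score. The number of genes with a count, after every library was thinned to the smallest total of 6059570 counts, was 7393 to 12739 (median 9523) in marker-high cells and 6101 to 10500 (median 7035) in marker-low cells, and its Spearman correlation with the score was 0.763 over the 46 cells. Totals ran from 8885437 to 22963196 (median 17403694) and from 6059570 to 21446854 (median 15205810). They fell into a lower set of 12 libraries, of which 4 were marker-high, and an upper set of 34. The mitochondrial share had medians of 5.40% and 6.53%. The part of detected genes in the results below was not tested beyond the values given within cells of fewer or more detected genes.

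A further 11154 genes reached 5 counts in 10 or more of the 46 cells. Of these, 1051 were called higher (9.42%) and 35 lower (0.314%) in marker-high cells. By the ratio alone the numbers were 1645 (14.7%) and 755 (6.77%). A gene that met the count filter through the cells of 1 group alone could be called only in that group's direction, here and in the lists below. With 5 counts required in 23 or more cells, 511 of 7237 genes were called higher and 34 lower. With DESeq2 size factors, which moved the median log2 ratio of all genes from 0.02 to -0.49, the split was 743 higher and 416 lower. The called-higher genes had a median log2 ratio of 2.24 and were counted in a median of 78.3% of marker-high and 34.8% of marker-low cells. Together they took 10.4% of the counts of marker-high cells and 2.16% of those of marker-low cells. The 35 called-lower genes were widely detected in both groups and had a median log2 ratio of -1.18. When the split by score was made separately among the 23 cells with fewer and the 23 with more detected genes and the 2 ratios were averaged, 477 genes were called higher, 351 of them among the 1051, and 92 lower, 3 of them among the 35. Only 4 of the 23 cells with fewer detected genes were marker-high, against 19 of those with more.

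The 12 genes of largest ratio among those called and counted in 80% or more of marker-high cells included genes of the extracellular matrix, of adhesion and of actin filaments. *Lum* (lumican, a small leucine-rich proteoglycan) ranged from 0 to 4251 CPM (median 364.8) in marker-high cells and from 0 to 91.96 CPM (median 0) in marker-low cells, a log2 ratio of 6.49 and a pair share of 92.6%. It lies at chr10:97565128-97572703, between *Dcn* (decorin, chr10:97479609-97518143) and the score marker *Epyc* (chr10:97644068-97682454). *Gsn* (gelsolin, which severs and caps actin filaments) ranged from 47.7 to 12091 CPM (median 2142) against 0 to 587.9 CPM (median 0.86) in marker-low cells, with a log2 ratio of 5.53 and 15 marker-high cells above every marker-low cell. *S100a11*, a calcium-binding S100 protein, ranged from 48.6 to 1118 CPM against 0 to 76.3 CPM, and 19 marker-high cells exceeded every marker-low cell (log2 ratio 5.29, pair share 98.9%). *Bcam* (a laminin receptor) ranged from 0.20 to 458.1 CPM against 0 to 22.3 CPM, and 20 marker-high cells lay above every marker-low cell. The other 8 were *Parva* (the adhesion protein alpha-parvin), *BC064078*, *Rab27b* (a GTPase of vesicle release), *Ces1d* (a carboxylesterase), *Ly6g6c*, *Gpx8* (a glutathione peroxidase), *Dpp4* (a dipeptidyl peptidase) and *Plpp2* (a lipid phosphatase), with log2 ratios between 5.05 and 6.15. Within the cells of more detected genes all 12 ratios were smaller. They were 2.94 for *Lum*, 2.62 for *Gsn*, 2.72 for *S100a11*, 2.19 for *Bcam* and 1.54 for *Plpp2*. Within the cells of fewer detected genes these were 6.48, 5.91, 5.84, 5.49 and 6.07. Ratios smaller within both included those of *Rab27b* (3.62 within fewer and 1.34 within more, against 5.76) and *BC064078* (5.11 and 0.99, against 6.07). The same held for *Parva* (4.84 and 2.87, against 6.15) and *Gpx8* (3.17 and 2.11, against 5.52). Single marker-low cells set several of these ratios: without P14_iOHC-45 the ratio was 7.55 for *Lum* and 6.95 for *Plpp2* (5.05 with it), without P14_iOHC-21 that of *Ly6g6c* was 7.21 (5.64 with it), without P14_iOHC-36 those of *Dpp4* and *Ces1d* were 6.17 (5.10) and 6.45 (5.65), and without P14_iOHC-24 those of *Gsn* and *S100a11* were 6.30 and 5.89.

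SC markers outside the score were higher in the same cells. Of the 20 listed, 13 passed the count filter. Of these, 9 (69.2%) were called higher and 0 lower, against 9.42% and 0.314% of all genes. Their median log2 ratio was 2.87, against 0.02 over all genes. Markers that passed the filter through the marker-high cells alone had to have a positive ratio. The median was 1.22 within the cells of fewer detected genes and 1.73 within those of more. *Sox2*, a transcription factor of prosensory cells and SCs, was counted in 15 of 23 marker-high cells (65.2%), up to 74.6 CPM, and in 3 of 23 marker-low cells, up to 1.73 CPM. *Sox10*, a Sox factor of SCs and glia, had a median of 72.7 CPM (0 to 269.6) against 0.10 CPM (0 to 201.5), a log2 ratio of 2.87. *Otog* (otogelin) was counted in all 23 marker-high cells, from 3.01 to 796.3 CPM, and in 10 marker-low cells, up to 219.6 CPM (log2 ratio 2.99, and 3.64 without P14_iOHC-8). Almost all of the summed CPM of this list came from *Fbxo2*, an F-box gene at 2224 to 13010 CPM in every cell, which was not called (log2 ratio 0.54) and had a median of 5318 CPM in P14_WT IHCs.

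Among the inner border and inner phalangeal markers, *Sox10*, *Jag1* (the Notch ligand of SCs, log2 ratio 1.90) and *Fabp7* (a fatty acid-binding protein, 3.11) were called higher, and the ratio of *Jag1* was 2.49 without P14_iOHC-19 and that of *Fabp7* 3.71 without P14_iOHC-36. Of the pillar and Deiters' cell list, *Prox1* and *Ngfr* had no count in any of the 46 cells, which allows up to 6.52% of cells with a count, for counting error only, and *Fgfr3* was counted in 3 marker-high cells and 1 marker-low cell. Also of this list, *Lfng*, a modulator of Notch, was called higher (3.61), with a median of only 1.53 CPM in marker-high cells, and *Lgr5*, a Wnt-pathway receptor, was not (0.50).

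Notch pathway genes were divided. Of the 28 listed, 16 other than *Hes1* passed the filter, with a median log2 ratio of 0.91. Of these, 7 (43.75%) were called higher and 0 lower, against 9.42% and 0.314% of all genes. Members that passed the filter through the marker-high cells alone had to have a positive ratio. The receptor *Notch1* was counted in 14 marker-high cells (up to 91.3 CPM) and 2 marker-low cells (up to 0.22 CPM), with a median of 1.15 CPM in the former. Among ligands, *Jag1* was called higher, while *Jag2*, which HCs express, was not called and had a log2 ratio of -1.89 with a pair share of 44.2%. The target repressors *Hey1* and *Heyl* were called higher (3.47 and 2.55, or 5.30 without P14_iOHC-45 and 3.56 without P14_iOHC-41), as were the coactivator *Maml3* (2.99) and the receptor-cleaving protease *Adam10* (2.41). *Rbpj*, the DNA-binding partner of Notch, had a log2 ratio of 1.05 and a pair share of 63.3%. The median of the list was 0.19 and 0.08 within the cells of fewer and of more detected genes, and -0.14 over the members that reached 5 counts in 23 or more cells.

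Of 11 listed tectorial membrane and otogelin genes outside the score, 10 passed the filter, with a median log2 ratio of 3.20. Of these, 8 (80%) were called higher, against 9.42% of all genes. All 10 ratios were positive, as they had to be for members that passed the filter through the marker-high cells alone. Their summed level ran from 144.1 to 11796 CPM (median 1961) in marker-high cells, from 0 to 3069 CPM (median 92.9) in marker-low cells, and had a median of 39.3 CPM in P14_WT IHCs. *Tectb* (beta-tectorin) ranged from 0.10 to 4701 CPM (median 493.4) against 0 to 1355 CPM (median 0.49). *Ceacam16*, which joins the tectorins in the striated-sheet matrix, ranged from 7.93 to 10279 CPM (median 384.1) against 0 to 1615 CPM (median 0.98). The collagens *Col9a1*, *Col9a2*, *Col9a3* and *Col11a2* were called higher with log2 ratios of 2.78, 1.87, 5.25 and 3.57. Those of the first 3 were 4.23 without P14_iOHC-45, 3.28 without P14_iOHC-44 and 5.84 without P14_iOHC-45. *Tectb* and *Ceacam16*, with log2 ratios of 3.23 and 3.57, had ratios of 4.39 and 5.07 without P14_iOHC-24. *Otoa* (otoancorin, which anchors the membrane at SCs) lay near the pair-share threshold at 70.3%, and leaving out any 1 of 32 cells ended its call; its ratio was 1.21, or 2.20 without P14_iOHC-18. The list median was 2.24 within the cells of fewer detected genes and 1.94 within those of more, and 2.91 and 4.93 within the upper and lower sets of totals.

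Much of the marker-low signal for these genes lay in P14_iOHC-24, the first cell below the boundary. It held the largest marker-low level of *Sox9* (224.9 CPM), *Sox10* (201.5 CPM), *S100b* (128.4 CPM), *Tectb* (1355 CPM), *Ceacam16* (1615 CPM) and *Kcnj16* (358.3 CPM). The same cell had 938.3 CPM of *Slc26a5* and 49592 CPM of *Ocm*, within the range of the other marker-low cells. Without it, the log2 ratios of *Sox10*, *S100b*, *Sox9* and *Kcnj16* were 4.93, 4.35, 3.73 and 3.59.

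Of the Sox and prosensory factors, 12 were compared and 7 (58.3%) were called higher, against 9.42% of all genes. All 12 ratios were positive, as they had to be for members that passed the filter through the marker-high cells alone. *Sox9* was counted in all 23 marker-high cells (0.86 to 296.1 CPM, median 92.4) and in 7 marker-low cells (median 0). *Sox21* was counted in 13 marker-high cells and 1 marker-low cell. *Id1*, *Id2* and *Id3*, inhibitors of basic helix-loop-helix factors such as Atoh1, had log2 ratios of 2.51, 1.14 and 1.24, whereas *Id4* had a ratio of 0.00. *Gata3* and *Isl1*, transcription factors of the sensory epithelium, had overlapping levels in both groups, with medians of 535.2 and 478.7 CPM for *Gata3* and of 358.7 and 336.3 CPM for *Isl1*. The call of *Id2* ended without P14_iOHC-43, and the ratios of *Id1* and *Sox9* were 3.29 without P14_iOHC-1 and 3.73 without P14_iOHC-24.

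Genes with which SCs handle potassium and glutamate were partly higher. *Kcnj16* and *Kcnj10*, inward-rectifier potassium channels, had log2 ratios of 2.95 and 4.37, and *Kcnj16* ran from 0 to 1492 CPM (median 157.3) against 0 to 358.3 CPM (median 0.06) and had a ratio of 3.59 without P14_iOHC-24. *Slc12a7*, the cotransporter KCC4, ranged from 33.6 to 996.5 CPM (median 204.4) against 0 to 222.1 CPM (median 69.8), a log2 ratio of 1.59. The other 6 members compared were not called. *Glul* (glutamine synthetase) was counted in 20 marker-high cells (median 18.9 CPM) and 8 marker-low cells (up to 2.48 CPM), a log2 ratio of 4.85. In contrast, the glutamine transporter *Slc38a1* had medians of 147.2 and 287.9 CPM and a pair share of 17.2%, just short of the ratio for a call (-0.98). No connexin or pannexin other than *Gjb2* and *Gjb6* passed the filter among the 8 listed: *Gja1* was counted in 2 of the 46 cells and never above 0.06 CPM.

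**Figure D2:**
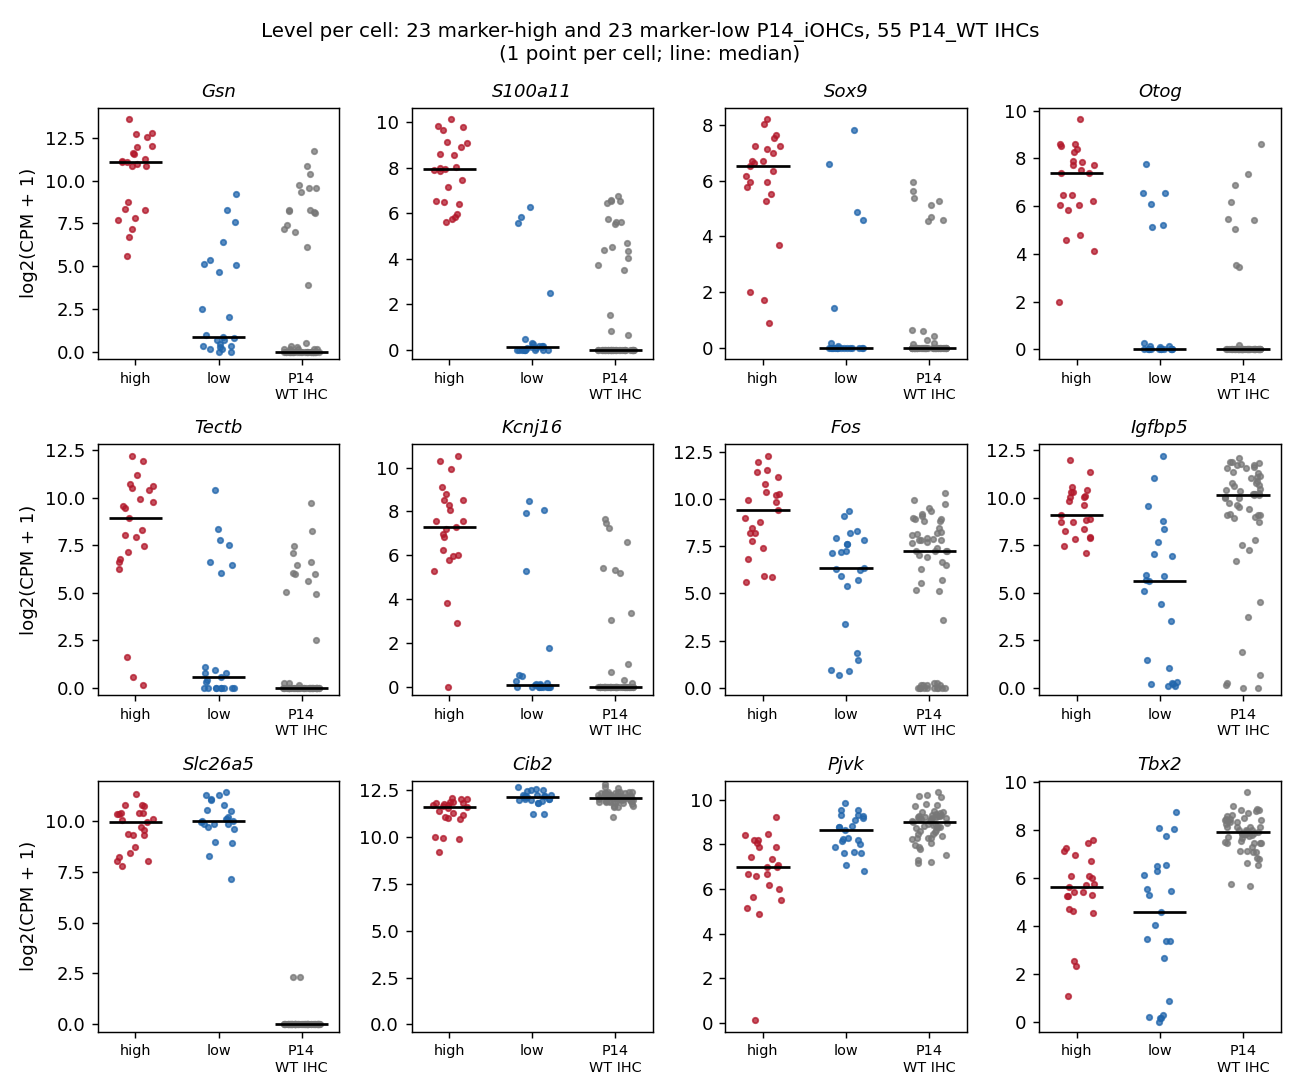
Level per cell, as log2(CPM + 1) on the y axis, of 12 genes in 23 marker-high and 23 marker-low P14_iOHCs and in 55 P14_WT IHCs; each point is 1 cell and each line a median. *Gsn* and *S100a11* are counted in all 23 marker-high cells, with medians of 2142 and 248.0 CPM. Some marker-low cells and P14_WT IHCs also carry *Otog* and *Tectb*, and *Slc26a5* covers overlapping ranges in both groups of P14_iOHCs.

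Markers of other cell types differed in level from list to list. Among fibroblast markers *Lum*, *Dcn* and *Vim* were called higher (3 of 5 compared, against 9.42% of all genes). *Col1a1* and *Pdgfra* had log2 ratios of -1.93 and -0.85 without a call. The summed level of the list was 2.82 to 4594 CPM (median 575.6) in marker-high cells against 0 to 221.3 CPM (median 67.6), with 16 marker-high cells above every marker-low cell. The ratio of *Vim* was 2.16, or 3.05 without P14_iOHC-42. *Pou3f4* had no count in the 46 cells, *Tbx18* was counted in 1 marker-low cell, and *Col1a1* and *Col1a2* never exceeded 16.98 and 0.79 CPM in a marker-high cell. Of the glial list, *S100b*, also an SC gene, was called higher (2.75, or 4.35 without P14_iOHC-24), and the myelin genes *Mag* and *Mog* never exceeded 3.80 CPM. The glial list had a median summed level of 106.3 CPM in marker-high and 12.4 CPM in marker-low cells, and the neuronal list one of 80.2 and 121.1 CPM. The part of these cell types in the results was not tested. No endothelial or blood marker passed the filter, although blood markers summed to 495.9 CPM in 1 marker-high cell. Of the immune markers *Cd68* alone passed it (log2 ratio 0.11), and of the neuronal markers *Nefl* and *Nefm* (-0.92 and 0.05), which IHCs also express.

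HC genes lay on the opposite side. Of 24 listed, 22 passed the filter and 21 had negative ratios (median -0.65). Of the 22, 0 were called higher and 2 (9.09%) lower, *Lhx3* and *Otof*, against 9.42% and 0.314% of all genes. The summed level of the list was 3311 to 16869 CPM (median 11446) in marker-high cells and 14997 to 21836 CPM (median 17962) in marker-low cells. Thus 18 of 23 marker-high cells lay below every marker-low cell, and the marker-low range included the P14_WT IHC median of 19574 CPM. *Cib2*, a subunit of the mechanotransduction complex, ranged from 597.1 to 4417 CPM (median 3145) against 2426 to 6440 CPM (median 4486), a log2 ratio of -0.69 with a pair share of 10.4%. *Espn* (espin, an actin bundler of stereocilia) had medians of 536.4 and 971.6 CPM (log2 ratio -0.83, pair share 17.8%), and *Pvalb* (parvalbumin) medians of 1717 and 2346 CPM (-0.60, pair share 17.4%). *Myo6*, *Myo7a* and *Pou4f3*, general HC markers, had ratios of -0.51, -0.80 and -0.67 and were counted in all 46 cells.

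The HC genes also followed the score among the marker-high cells themselves. The Spearman correlation of their summed CPM with the score was -0.874 over the 23 marker-high cells and -0.154 over the 23 marker-low cells; the points share library depth and the closed total of CPM, by which a larger share of some genes leaves a smaller one for others. All 22 genes had a negative correlation with the score among the marker-high cells, from -0.791 (*Cib2*) to -0.134 (*Lhx3*). The 3 cells with the largest scores held 3311 to 4910 CPM of HC genes. Within the upper and lower sets of totals the list median was -0.67 and -0.35, and within the cells of fewer and of more detected genes -0.21 and -0.95.

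OHC markers had overlapping levels in the groups. Of 11 listed, 10 were compared, and 9 had ratios between -0.82 and -0.33 without a call. Pair shares were at most 30% for 3 of the 10. As for the HC genes, correlations with the score among the marker-high cells were mostly negative, in 9 of 10 markers (median -0.521). *Slc26a5* (Prestin, the OHC motor protein) ranged from 219.7 to 2625 CPM (median 992.7) in marker-high cells and from 142 to 2787 CPM (median 1040) in marker-low cells, a log2 ratio of -0.33 and a pair share of 40.5%. *Ocm* (oncomodulin, a calcium buffer of OHCs) had medians of 31970 and 46043 CPM, and *Ikzf2*, a regulator of OHC fate, medians of 260.7 and 271.9 CPM, with log2 ratios of -0.39 and -0.35. The exception was *Tmod1* (tropomodulin, which caps actin filaments), called higher with a median of 148.9 CPM against 6.39 CPM and a log2 ratio of 2.61. *Bcl11b* had no count in any of the 46 cells. Of the 151 OHC genes listed by the study, which were defined on other cells of this laboratory and the P30_WT IHCs, 140 were compared, 3 (2.14%) were called higher and 2 (1.43%) lower, against 9.42% and 0.314% of all genes. The median log2 ratio was -0.37, or 0.015 and -0.55 within the cells of fewer and of more detected genes.

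IHC markers had a median log2 ratio of -0.75 over 7 genes compared. *Slc17a8* ranged from 0 to 337.7 CPM (median 25.0) against 0 to 935.4 CPM (median 120.5), a log2 ratio of -1.76, but its pair share of 32.4% fell short of a call, which it met without P14_iOHC-7, P14_iOHC-15, P14_iOHC-24 or P14_iOHC-36. *Otof* (otoferlin, the calcium sensor of synaptic release in IHCs) ranged from 23.3 to 1320 CPM (median 135.4) against 0.10 to 3235 CPM (median 301.2), a log2 ratio of -1.24. Its pair share of 29.7% lay at the threshold, leaving out any 1 of 26 cells ended the call, and in the lower set of totals alone its ratio was 1.91. *Igfbp5* was the reverse: it ranged from 133.5 to 4010 CPM (median 538.6) against 0.07 to 4743 CPM (median 48.9), a log2 ratio of 1.19 and a pair share of 86.2%, and its call ended without P14_iOHC-10, while the ratio was 2.18 without P14_iOHC-44. Among ribbon synapse genes 9 of 10 ratios were negative (median -0.67) and 1, *Otof*, was called. The IHC gene list of the study, which was partly defined on the P30_WT IHCs, had 317 members compared. Of these, 53 (16.7%) were called higher and 2 (0.631%) lower, against 9.42% and 0.314% of all genes, with a median log2 ratio of 0.08.

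*Tbx2*, the deleted gene, did not separate the groups. It ranged from 1.11 to 191.9 CPM (median 47.8) in marker-high cells and from 0 to 427.4 CPM (median 22.9) in marker-low cells, a log2 ratio of -0.18 with a pair share of 60.5%. The P14_WT IHC median was 240.3 CPM, and 0 marker-high and 3 marker-low cells lay above it. The ratio has no stable sign: it was 0.20 in the upper set of totals, 1.36 in the lower set, 0.17 without P14_iOHC-44, 1.18 as a difference of mean log2 levels and 1.10 with the summed HC genes made equal in every cell.

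The 12 genes named by rule among those called lower included transcription factors and HC genes. *Pjvk* (pejvakin, mutated in hereditary deafness) ranged from 0.08 to 594.8 CPM (median 125.0) in marker-high cells and from 109.5 to 922.4 CPM (median 395.4) in marker-low cells, a log2 ratio of -1.30 and a pair share of 15.3%. *Irx2*, an Iroquois homeobox factor, had medians of 65.4 and 167.2 CPM (-1.60), and *Lhx3*, a LIM-homeobox factor of HCs, medians of 13.3 and 74.8 CPM (-1.50). *Baiap2l2*, a protein of the tips of stereocilia, had medians of 7.06 and 39.8 CPM (-1.37), and its ratio was 0.04 in the lower set of totals. The others were *Fam155a* (an auxiliary protein of the NALCN channel), *Kcp*, *Pcsk5* (a proprotein convertase), *Flii* (an actin-binding gelsolin relative), *Otof*, *Gm9195*, *B330016D10Rik* and *Gm34220*. Of these, *Flii* and *Gm34220* lay at the pair-share threshold, at 29.9% and 29.7%, and leaving out any 1 of 25 and 26 cells, respectively, ended the call. Within the cells of fewer and of more detected genes, *Irx2* kept ratios of -1.01 and -1.85, whereas *Gm9195* had ratios of 0.56 and -0.16 and *Gm34220* ratios of 0.15 and 1.42.

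**Figure D3:**
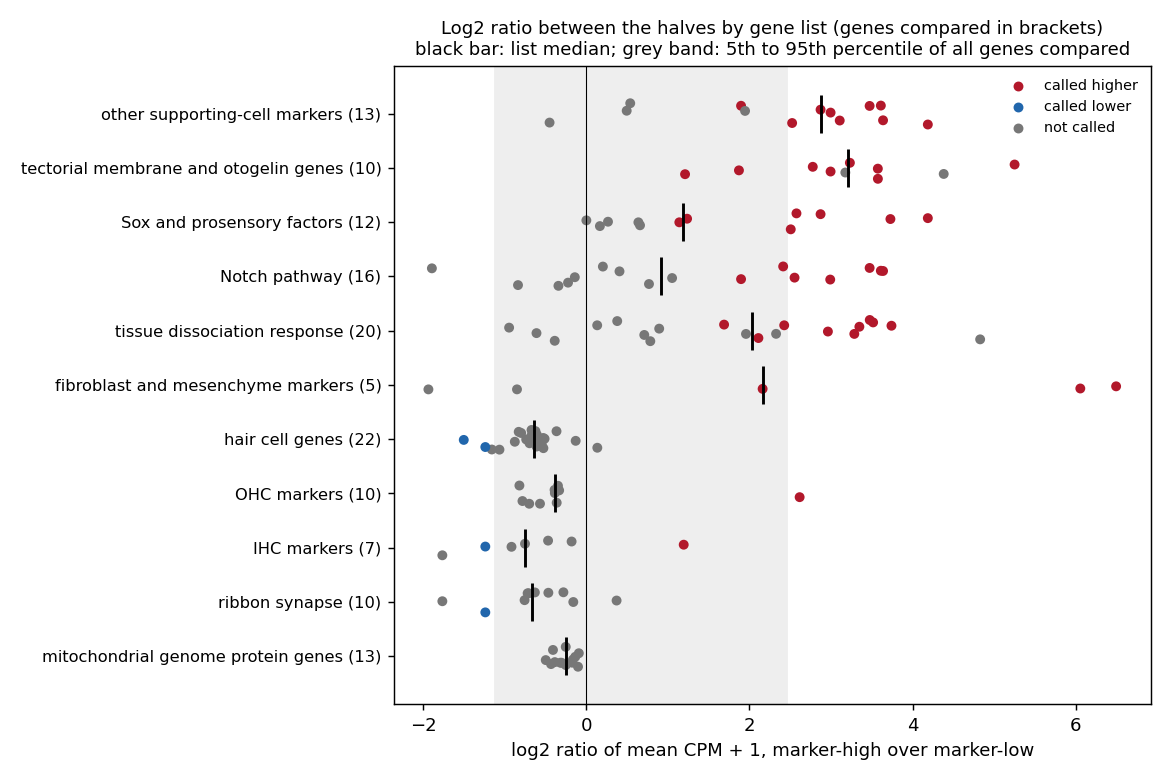
Log2 ratio of marker-high over marker-low cells (x axis) for the members of 11 gene lists (y axis, with the number compared); each point is 1 gene, coloured by its call, each black bar is a list median, and the grey band runs from -1.12 to 2.46, the 5th to 95th percentile of all 11154 genes. SC and tectorial membrane genes have medians of 2.87 and 3.20, and 21 of 22 HC genes lie below 0.

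The dissociation-response list was also higher in marker-high cells. It holds mainly immediate-early genes, which are induced within minutes when tissue is digested or cells are stimulated, and some chaperone genes. Of 20 members compared (median log2 ratio 2.03), 9 (45%) were called higher and 0 lower, against 9.42% and 0.314% of all genes. The summed level of the list was 2702 to 24084 CPM (median 6911) in marker-high cells and 2575 to 10877 CPM (median 5016) in marker-low cells. In P14_WT IHCs its median was 5486 CPM. *Fos*, a subunit of AP-1, ranged from 47.9 to 5007 CPM (median 684) against 0.61 to 656.7 CPM (median 81.0), a log2 ratio of 2.96. *Ier2* had medians of 321.4 and 5.25 CPM (3.28), *Zfp36*, which promotes decay of AU-rich transcripts, medians of 89.0 and 0.30 CPM (3.47), and *Dusp1*, a phosphatase of MAP kinases, medians of 220.9 and 76.1 CPM (2.43). *Junb*, *Egr1*, *Nr4a1*, *Klf4* and *Klf6* were also called higher, *Nr4a1* at a pair share of 70.1% that leaving out any 1 of 26 cells ended. Without P14_iOHC-19 the ratio of *Zfp36* was 4.63, and without P14_iOHC-45 and P14_iOHC-33 those of *Nr4a1* and *Klf4* were 4.94 and 4.62 (3.74 and 3.51 with them). *Jun* was not (0.13), and the chaperone *Hsp90aa1* had a ratio of -0.39 with a pair share of 24.8%. The list median was 0.18 within the cells of fewer detected genes and 2.75 within those of more. The part of detected genes in this difference was not tested further.

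The 250 bases upstream of the start are shown for 4 of the called genes of this list whose promoters were in the RefSeq table (GRCm38.p6). Of the 9 called genes, 7 had an entry. Capitals mark TGACG on either strand, the core of the cAMP response element, or a CArG box, the site of serum response factor, searched on both strands. TGACG was present upstream of 5 of the 7, against 17.9% of the 27025 promoters in the table, and a CArG box upstream of 1, against 1.40%. All 4 sequences shown hold a match, whereas *Klf6*, not shown, had neither motif. The genes come from a list made up mainly of immediate-early genes, so these shares describe that list and are no test of the cells. A match describes the letters of this window and is not evidence of binding.
*Fos* (chr12:85473640-85473889, plus strand): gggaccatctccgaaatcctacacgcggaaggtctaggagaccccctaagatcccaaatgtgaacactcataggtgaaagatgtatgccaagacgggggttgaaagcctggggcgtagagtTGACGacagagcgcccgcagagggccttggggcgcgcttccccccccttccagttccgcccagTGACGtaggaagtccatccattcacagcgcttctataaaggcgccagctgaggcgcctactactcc
*Junb* (chr8:84978749-84978998, minus strand): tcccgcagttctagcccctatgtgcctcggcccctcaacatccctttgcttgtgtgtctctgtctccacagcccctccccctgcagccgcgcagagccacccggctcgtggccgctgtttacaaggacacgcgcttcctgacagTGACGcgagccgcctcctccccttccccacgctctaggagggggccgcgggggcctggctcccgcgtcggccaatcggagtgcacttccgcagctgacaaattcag
*Dusp1* (chr17:26508473-26508722, minus strand): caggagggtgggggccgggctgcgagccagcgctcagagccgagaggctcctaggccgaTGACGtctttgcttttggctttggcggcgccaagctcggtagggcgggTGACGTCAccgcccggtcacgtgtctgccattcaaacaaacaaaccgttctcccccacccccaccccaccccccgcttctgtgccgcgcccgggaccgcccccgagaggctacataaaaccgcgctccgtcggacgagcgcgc
*Zfp36* (chr7:28379229-28379478, minus strand): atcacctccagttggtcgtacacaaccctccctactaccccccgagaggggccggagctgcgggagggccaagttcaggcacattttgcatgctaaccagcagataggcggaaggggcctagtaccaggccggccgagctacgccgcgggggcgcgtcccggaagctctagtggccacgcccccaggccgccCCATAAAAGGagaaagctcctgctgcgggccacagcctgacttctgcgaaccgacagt

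The P14_WT IHCs give levels of the same genes in cells that kept *Tbx2*. Both groups of P14_iOHCs share these 55 control cells, so the ratios below stand side by side without a test. Over P14_WT IHCs, 1334 genes (12.0%) were called higher and 513 (4.60%) lower for marker-high cells, and 409 (3.67%) and 606 (5.43%), respectively, for marker-low cells. *Slc26a5* had log2 ratios of 9.79 and 10.12, *Ocm* of 5.45 and 5.83 and *Ikzf2* of 8.09 and 8.44, in marker-high and marker-low cells. *Slc17a8* had ratios of -4.45 and -2.69, *Otof* of -3.83 and -2.60, and *Calb2*, a calcium buffer of IHCs, of -3.22 and -2.47. *Sox2* had ratios of 1.92 and -2.27, *Lum*, of the fibroblast list, of 3.75 and -2.74, and *Gsn* of 3.68 and -1.86. The median over the HC genes was -0.50 for marker-high and 0.13 for marker-low cells, and that over the dissociation-response list was 2.11 and -0.01.

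**Figure D4:**
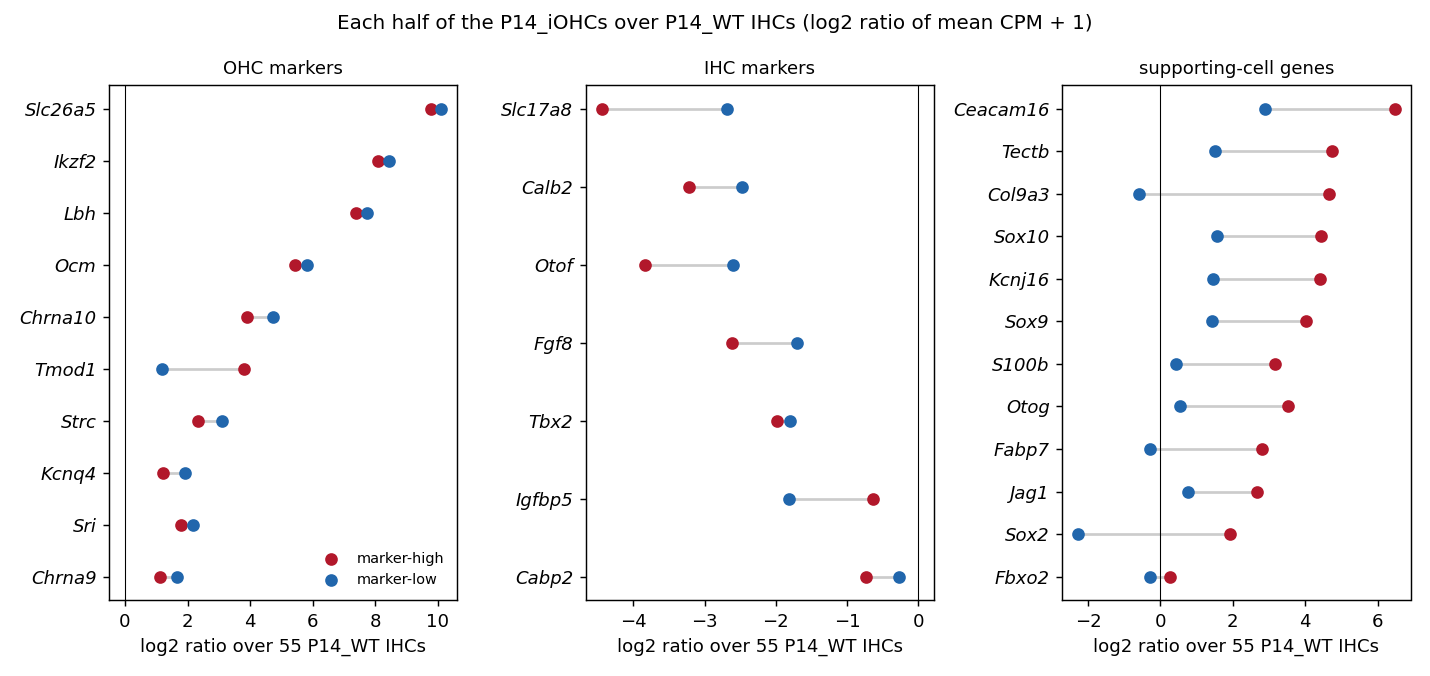
Log2 ratio over the 55 P14_WT IHCs (x axis) of marker-high and marker-low P14_iOHCs for OHC markers, IHC markers and SC genes; each point is 1 gene in 1 group and grey lines join the groups. *Slc26a5* lies at 9.79 and 10.12, *Slc17a8* at -4.45 and -2.69, and *Sox2* on opposite sides of 0, at 1.92 and -2.27.

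The score was also applied within the IHC groups, which the choice of P14_iOHCs did not use. In the P14_WT IHCs (27 cells with the largest against 27 with the smallest scores), 68 of 11099 genes were called higher (0.613%) and 35 lower (0.315%). Of the 1051 genes called higher in P14_iOHCs, 725 were compared there, 487 (67.2%) had a positive ratio, against 49.9% of all genes, and 45 (6.21%) were called higher. In the P30_WT IHCs (25 against 25 cells), 108 of 10165 genes were called higher (1.06%) and 34 lower (0.334%). There 650 of the 1051 were compared, 402 (61.8%) had a positive ratio, against 48.2% of all genes, and 51 (7.85%) were called higher. *Gsn*, *Lum* and *S100a11* were called higher at both ages, with log2 ratios of 8.70, 6.66 and 4.86 at P14 and 6.65, 6.15 and 4.95 at P30. *Tectb*, *Sox9* and *Kcnj16* were called higher in the P14_WT IHCs (6.16, 3.58 and 4.86), and *Otog* and *Vim* in the P30_WT IHCs (6.02 and 3.32). The lists followed only in part. Other SC markers had medians of 0.10 over 7 genes at P14 and 1.44 over 5 at P30. Tectorial membrane genes had medians of 1.61 over 5 and 4.04 over 3. Each of these 2 lists had 1 gene called higher at each age. Sox and prosensory factors had medians of -0.05 and 0.12, and Notch genes of 0.27 and -0.19. Both had 1 call at P14 and 0 at P30. The dissociation-response list had medians of -0.14 and 0.30 with 0 calls at either age, and the HC genes medians of -0.14 and -0.11, also with 0 calls. Of the 35 genes called lower in P14_iOHCs, 25 (71.4%) had a negative ratio in P14_WT IHCs, against 50.1% of all genes. In P30_WT IHCs 17 (48.6%) did, against 51.8% of all genes, and 0 of the 35 were called lower at either age.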

How the data were processed

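Single cells were picked by hand, amplified with Smart-Seq HT and sequenced; the number of mice is not given. The authors aligned reads to mm10 (GRCm38) with Hisat2 2.1.0 and counted them with HTSeq 0.10.0, and the table they deposited holds raw counts per gene. Annotation release and strand setting are not given in the sources used here. CPM, the score and all ratios were computed here (Python 3.11.15, pandas 2.3.3) with a pseudocount of 1 CPM. The procedure was tested on simulated data. In these the groups were set in advance and the count filter was off, so the choice of cells by score was not covered. Totals per P14_iOHC library ran from 6059570 to 22963196 counts; intervals and limits for counts cover counting error only. No doublet caller was run and no library was left out, and no pair of P14_iOHC libraries was identical.

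The members, gene lists and comparisons were chosen with earlier results of these data known. No test was run: each library is 1 cell, no label ties cells to animals, and the groups were drawn on measured values. Named genes are the score markers, members of the lists, *Tbx2*, and in each direction the 12 called genes of largest ratio counted in 80% or more of the group where they were higher. Positions are from GENCODE M21 and upstream sequences from RefSeq. Of these 24 genes, 7 share exon bases with another gene (*Bcam*, *Ly6g6c*, *Dpp4*, *Lhx3*, *Fam155a*, *Flii* and *Kcp*), as do the score marker *Epyc* and *Prox1*, *Fgfr3*, *Sox21*, *Gata3*, *Id4*, *Nefl*, *Nefm*, *Pdgfra*, *Tbx18*, *Ikzf2*, *Jun*, *Epb41*, *Cib2*, *Tmod1*, *Strc*, *Tectb*, *Ceacam16*, *Col9a3*, *Notch1*, *Glul*, *Junb*, *Dusp1* and *Zfp36*, so their counts are uncertain. Of the 1051 and 35 called genes, 11 (1.05%) and 1 (2.86%) are processed or unprocessed pseudogenes in GENCODE, against 5.36% of all genes compared. Alternatives were other scalings (TMM of edgeR 4.0.16, DESeq2 1.42.0), filters, pseudocounts, thinning, narrower or changed splits, and leaving out cells. Some members of the lists are not reported here.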

Additional observations from a re-analysis of the deposited data

How the results depend on the processing

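No paired analysis was possible because the replicate numbers only name picked cells and the result comes from no test. Under 19 alternatives, 2 of which were chosen after seeing the data, 462 of 470 values of the 25 named genes kept their sign, and 4 of the other 8 were of *Tbx2*. Many of the 470 could not change sign. Other count filters leave the ratio of a gene as it is, and a smaller pseudocount cannot turn its sign. Scores without *Gjb2* or without *Gjb6* gave the same calls and ratios. The named genes other than *Tbx2* were also chosen for large ratios. Leaving out each cell in turn, also chosen after seeing the data, gave 951 to 1109 genes called higher and 27 to 43 lower. The count of genes called higher was 511 when 5 counts were required in 23 cells, 2009 in the lower set of totals (there with 5 counts required in 3 of its 12 cells), 477 within cells of fewer or more detected genes, and 2952 when the summed HC genes were made equal in every cell. Genes called lower numbered 416 with DESeq2 size factors, 225 with the top 15 against the bottom 15 cells, 53 with a score without *Epyc*, 99 and 406 in the upper and lower sets of totals, 92 within cells of fewer or more detected genes, and 1 with HC genes made equal, a scaling that moved the median of all genes to 0.88 and removes the HC difference by construction. The difference of mean log2 levels moved that median to 0.59.

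The median log2 ratio of other SC markers was 3.98 with 15 against 15 cells, 3.94 in the lower set of totals, 4.03 with HC genes made equal, 2.22 within cells of fewer or more detected genes and 2.04 with DESeq2 size factors; that of tectorial membrane genes was 5.33 with 15 against 15. Notch genes had medians of -0.14 with the stricter filter, 2.66 in the lower set of totals and 1.97 with HC genes made equal. OHC genes of the study turned to 0.077 with mean log2 levels and to 0.28 with HC genes made equal. IHC genes of the study had medians of -0.35 with DESeq2 size factors, 1.00 in the lower set of totals, -0.088 within cells of fewer or more detected genes and 0.94 with HC genes made equal, so their median has no stable sign. Ratios of *Baiap2l2* (0.039) and *Otof* (1.91) reversed in the lower set of totals, and those of *Gm9195* (0.20) and *Gm34220* (0.79) within cells of fewer or more detected genes. Apart from the scaling to HC genes, the cause was not tested. No cell lay over 3 median absolute deviations in detected genes, so that alternative was not run. The 12 libraries of the lower set allow little precision.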

Other observations

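Of 83 ribosomal protein genes compared, 70 (84.3%) had positive ratios, against 51.1% of all genes, with a median log2 ratio of 0.26. Of the 83, 3 (3.61%) were called higher, against 9.42% of all genes. All 13 protein genes of the mitochondrial genome had negative ratios between -0.50 and -0.09, none of which passed the threshold for a call. Spectrin and cortical lattice genes, which form the submembrane skeleton of OHCs, had a median of 0.61 over 10 genes, with *Add3* (2.23, or 2.82 without P14_iOHC-24) and *Epb41* (1.02) called higher and *Ank3* at -0.84 with a pair share of 24.4%. The call of *Epb41* ended when any 1 of 21 cells was left out. Of the cell cycle genes *Pcna* alone passed the filter (log2 ratio 0.31), and *Mki67* never exceeded 1.96 CPM in a P14_iOHC.

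In the P30_WT IHCs split by the same score, the OHC markers *Ocm*, *Strc* and *Tmod1* were called higher in the cells with more SC marker signal, with log2 ratios of 1.27, 1.16 and 4.62. In the P14_WT IHCs the ratios of the same genes were -0.31, -1.16 and 2.62, without a call.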
